A study of Mus musculus with 4 samples.

Results

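Ly6a, Ly6c1, Ly6c2, Ly6e and Ly6h, 5 of the 31053 genes in the count matrices, were followed across the cell classes of brain vascular-associated cells (BVACs) after chronic social defeat (CSD) or home cage (HC) housing. The 5 genes were taken by their names in the gene list of the matrices. Single-cell RNA sequencing was performed on 4 libraries (CSD 1, CSD 2, HC 1 and HC 2), each from the pooled cells of 4 male wild-type C57BL/6 mice aged 12 to 14 weeks, so that n = 2 libraries per condition. Each CSD mouse spent 14 days in the cage of an aggressive CD-1 mouse behind a perforated partition, which was lifted for 5 min a day. Each HC mouse also shared a cage with a CD-1 mouse for 14 days, per the study's methods, but the partition between them stayed in place. In both conditions cells were captured from whole-brain tissue without cerebellum, striatum, brainstem and olfactory bulbs with beads against CD31, a surface protein of endothelial cells (ECs). Because mice were pooled, variation between mice within a library was not measured.

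Proteins of the Ly6/uPAR family share a small, disulfide-rich fold shaped like a hand with extended finger loops, and most are held in the outer cell membrane by a lipid (GPI) anchor. Ly6a encodes Sca-1, a stem cell and lymphocyte antigen that brain ECs of C57BL/6 mice also carry and that serves there as the receptor of engineered AAV-PHP.B viral capsids. Ly6c1 and Ly6c2 encode the closely related Ly6C antigens, Ly6C being the marker by which classical monocytes are sorted. Ly6e encodes an interferon-inducible protein that acts on virus entry and is the receptor of syncytin-A in the placenta. Ly6h is a brain family member that binds nicotinic acetylcholine receptors.

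All 5 genes lie on mouse chromosome 15. In GENCODE M21 (GRCm38), Ly6e (chr15:74955051-74959905, plus strand), Ly6a (chr15:74994877-74998031, minus), Ly6c1 (chr15:75044018-75048830, minus), Ly6c2 (chr15:75108158-75111970, minus) and Ly6h (chr15:75551268-75567255, minus) are protein-coding genes, and no other annotated gene overlaps any of them on either strand. Their identifiers are ENSMUSG00000022587, ENSMUSG00000075602, ENSMUSG00000079018, ENSMUSG00000022584 and ENSMUSG00000022577 in the same order. Ly6c1 and Ly6c2 are near-copies. Their longest protein-coding transcripts were identical at 97.6% of 822 aligned bases and differed at 6 of 293 aligned bases within the last 300, the end that 3′ libraries sample, so that reads may be divided between them with error or discarded as ambiguous. Ly6a was more distant, at 86.2% identity to Ly6c1 and 84.7% to Ly6c2. The start regions of the near-copies have diverged further. They are shown because the transcripts below were found in different cells. The entries run from 250 bases before to 50 bases after an annotated start (RefSeq, GRCm38.p6; minus strand, 5′ to 3′), Ly6c1 at chr15:75048788-75049087 and Ly6c2 at chr15:75111922-75112221, and capitals mark bases that differ or have no partner inside their alignment:
Ly6c1: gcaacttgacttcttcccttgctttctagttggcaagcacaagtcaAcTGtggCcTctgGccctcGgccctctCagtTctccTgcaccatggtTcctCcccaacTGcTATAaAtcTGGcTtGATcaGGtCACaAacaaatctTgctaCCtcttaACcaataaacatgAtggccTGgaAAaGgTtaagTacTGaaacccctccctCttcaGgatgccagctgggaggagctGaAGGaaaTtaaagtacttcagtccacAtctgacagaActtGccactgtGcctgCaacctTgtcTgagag
Ly6c2: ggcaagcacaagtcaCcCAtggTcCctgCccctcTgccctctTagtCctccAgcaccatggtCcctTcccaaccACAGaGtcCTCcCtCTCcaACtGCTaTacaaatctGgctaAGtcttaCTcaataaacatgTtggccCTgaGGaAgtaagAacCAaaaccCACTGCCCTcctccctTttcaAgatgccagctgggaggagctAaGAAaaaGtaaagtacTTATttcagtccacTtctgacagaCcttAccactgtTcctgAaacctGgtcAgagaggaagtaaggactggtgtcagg
Of 266 aligned bases 208 were identical (78.2%).

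Cells were barcodes with at least 500 UMIs, at least 250 genes and at most 25% mitochondrial UMIs. This left 4079, 2553, 2849 and 4934 cells in CSD 1, CSD 2, HC 1 and HC 2, or 14415 in all, from between 27297599 and 30361474 UMIs per library. Libraries shared between 0 and 9 cell barcodes. CSD 2 stood apart from the other 3 over all genes, with 32.6% of its UMIs in cells against 51.8% to 56.8% in the others. Cells were assigned to 16 classes by at least 3 detected markers, none of them a Ly6 gene. ECs made up 33.6% of cells and microglia 30.4%, while 12.2% carried markers of a second class and 4.73% had too few markers, and both were left out. All 12 EC markers were detected in ECs, which is no separate check, since ECs were assigned by these markers. Among the 10 genes of highest fold in ECs over the cells of all other classes, Ly6c1 led the list and Ly6a was the third, although neither gene was used for the assignment. Free RNA was measured in barcodes of at most 100 UMIs.

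Ly6a was by far highest in ECs, followed by T cells. In ECs it reached 3594 CPM (counts per 1000000 UMIs of the class) in CSD 1, 3507 in CSD 2, 3438 in HC 1 and 3775 in HC 2, a mean of 3578 ± 146 (SD, n = 4). T cells came next among well-filled classes, at 245, 189, 158 and 174 CPM (192 ± 37.9). The level of ECs lay above that of T cells in every library, by 4.22 on the log2 scale (SE 0.25, adjusted p = 1.3e-21 by edgeR's quasi-likelihood test over 8791 genes, of which 35.7% differed between these classes). T cells in turn exceeded pericytes, the contractile cells of capillaries, by 2.09 (SE 0.41, adjusted p = 3.8e-05, with 31.8% of genes called). Pericytes (56.1 ± 27.9 CPM), arterial smooth muscle cells (SMCs; 24.3 ± 15.9), astrocytes (17.9 ± 14.7) and microglia (15.01 ± 6.96) overlapped with their neighbors in this order, and none of these 3 steps passed the test (adjusted p = 0.309, 0.632 and 0.659, with 29.5%, 44.1% and 53.7% of genes called). Choroid plexus cells were lowest of the tested classes at 6.80 ± 2.20 CPM, below microglia by a margin at the threshold (log2 difference 0.60, SE 0.28, adjusted p = 0.0452, with 77% of genes called), and the call was lost under 9 of 12 other settings.

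The low levels outside ECs were set beside the free RNA of each library. In barcodes of at most 100 UMIs, Ly6a was at 149 to 291 CPM and Ly6c1 at 252 to 509 CPM, with 0.490 to 0.610 Ly6a UMIs per Ly6c1 UMI. The Ly6a level of T cells lay above that of free RNA in CSD 1 and HC 1 and below it in CSD 2 and HC 2. ECs had 0.694 Ly6a UMIs per Ly6c1 UMI, and the few UMIs in pericytes (26 Ly6a and 30 Ly6c1) and SMCs (42 and 54) came at ratios of 0.867 and 0.778. T cells had another balance, with 51 Ly6a UMIs against 8 of Ly6c1 (86.4% of their sum; exact 95% interval 75.0% to 94.0%, against 41.0% in ECs). Fibroblasts pooled over libraries also had more Ly6a than Ly6c1 UMIs (16 against 5, or 76.2% of the sum, interval 52.8% to 91.8%), in 69 cells. The Ly6a UMIs were in 6 of these cells, 4 UMIs in HC 1 and 12 in HC 2. CSD 1 and CSD 2 had 0 Ly6a UMIs there, against 1 and 2 of Ly6c1. Microglia had 159 Ly6a and 142 Ly6c1 UMIs (52.8% of the sum, interval 47.0% to 58.6%). Choroid plexus cells had 95 of each (interval of the Ly6a share 42.7% to 57.3%). In both classes the interval lay above the 41.0% of ECs. These intervals cover counting error only, and the part that free RNA had in the levels outside ECs was not tested.

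Ly6c1 was higher still in ECs and, with cells of a second class left out, in no other class above free RNA. ECs had 4823 CPM in CSD 1, 5956 in CSD 2, 4694 in HC 1 and 5019.9 in HC 2 (5123 ± 571, n = 4). The highest value was that of CSD 2. The nearest class with at least 10 cells in every library, pericytes, had 56.6 ± 27.2 CPM, and the difference was 6.71 on the log2 scale (SE 0.27, adjusted p = 2.3e-29, with 33.4% of genes called between these classes). Below ECs, classes were tested only against their neighbors in the order, so that its ends were not compared. Pericytes had 21.2 to 81.9 CPM and choroid plexus cells 5.90 to 9.14, without overlap. Pericytes, SMCs, astrocytes, T cells, microglia and choroid plexus cells spanned 56.6 to 7.55 CPM, and none of the 5 steps between neighbors was called (adjusted p from 0.208 to 0.887). Between astrocytes and T cells 36.3% of all genes were called, and between T cells and microglia 34.4%. When cells with markers of a second class were kept, pericytes were at 949.9 CPM and SMCs at 437 CPM. The steps from pericytes to SMCs and from SMCs to astrocytes were then called by edgeR (adjusted p = 0.0442 and 1.6e-05).

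**Figure D1:**
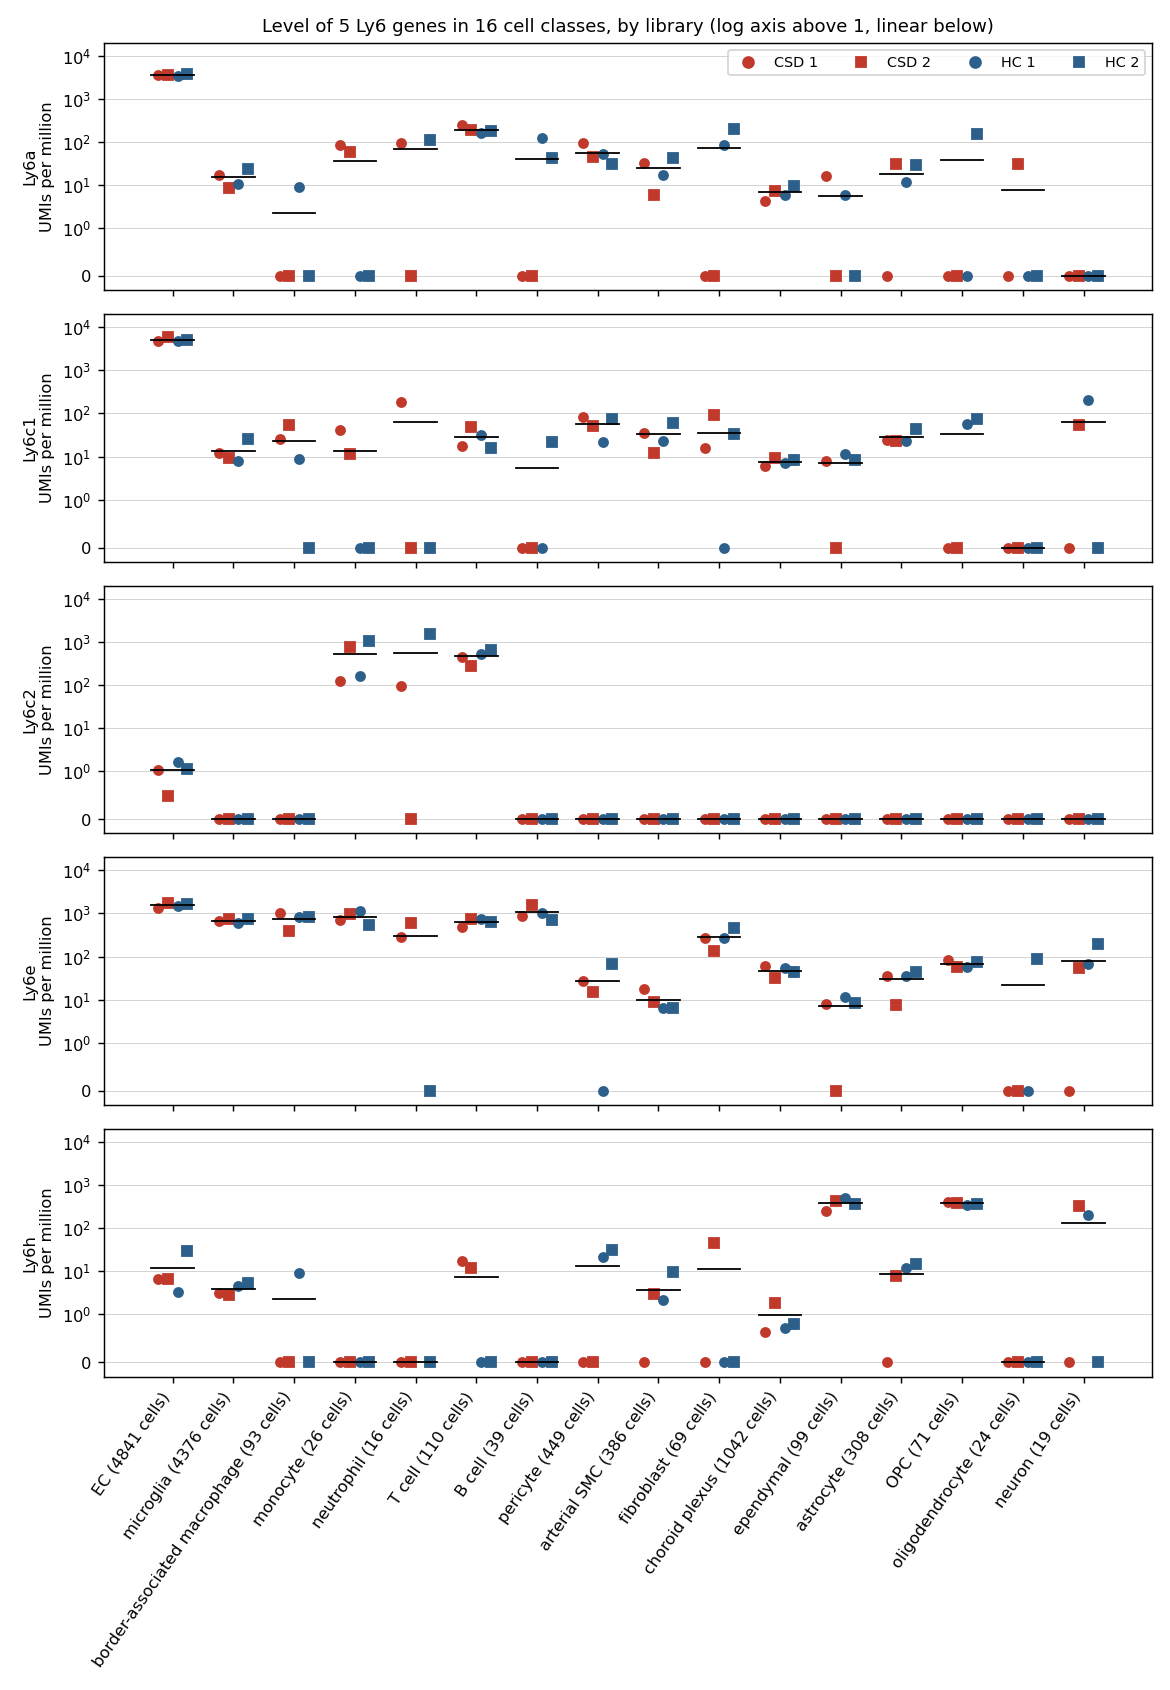
Level of each Ly6 gene (CPM, log axis above 1 and linear below) in 16 cell classes, with 1 point per library and a line at the mean. Ly6a and Ly6c1 are highest in ECs, Ly6c2 in monocytes, neutrophils and T cells, Ly6e in ECs and leukocytes and Ly6h in ependymal cells and oligodendrocyte precursor cells (OPCs). Classes with under 50 cells have wide spreads, and neutrophils were absent from HC 1.

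Ly6c2, the near-copy, was found mainly in T cells, monocytes and neutrophils instead. In T cells it was at 438 CPM in CSD 1, 272 in CSD 2, 521 in HC 1 and 634 in HC 2 (466 ± 153, n = 4), from 121 UMIs in 110 cells. Monocytes had 125, 761, 159.7 and 1064 CPM (527 ± 462), from 82 UMIs in 26 cells, 65 of the UMIs in CSD 2. Neutrophils had 15 UMIs in 16 cells, 14 of them in the 2 cells of HC 2. Both were too few to test. ECs held 8 Ly6c2 UMIs in 4841 cells (1.07 ± 0.468 CPM) beside 39044 of Ly6c1, so that T cells exceeded ECs by 8.60 on the log2 scale (SE 0.38, adjusted p = 3.3e-23, with 35.7% of genes called). The other 12 classes had no Ly6c2 UMI, among them B cells (39 cells) and border-associated macrophages (93 cells). In these leukocytes a count of 0 allows up to 40.9 and 13.4 CPM. For microglia, with 10751632 UMIs, a count of 0 allows a level of up to 0.279 CPM, and for choroid plexus cells 0.233 CPM. Free RNA held 0.534 to 2.85 CPM. T cells had 15.1 Ly6c2 UMIs per Ly6c1 UMI. The T cell class was led by Ccl5, Trbc2, Nkg7, Ms4a4b and Cd3g, and also by Gzma, a granule protease of cytotoxic cells, and the monocyte class by Plac8 and antigen presentation genes (H2-Ab1, Cd74). Of these, Trbc2, Ms4a4b, Cd3g and Plac8 were markers of the assignment.

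Ly6e had the widest range of cells. It was highest in ECs at 1342 CPM in CSD 1, 1712 in CSD 2, 1519 in HC 1 and 1637 in HC 2 (1553 ± 161, n = 4). Microglia had 662, 739, 595 and 730 CPM (682 ± 67.1), less than ECs in all 4 libraries. The difference was 0.86 on the log2 scale (SE 0.17, adjusted p = 1.7e-05), in a contrast in which 66.4% of genes were called. T cells (648 ± 128 CPM) did not differ from microglia beyond their spread (log2 difference 0.36, SE 0.21, adjusted p = 0.191). B cells (1056 ± 372), monocytes (838 ± 267) and border-associated macrophages (BAMs; 762 ± 272), which were too few to test, lay between ECs and microglia. Levels fell from T cells to choroid plexus cells (47.3 ± 13.1 CPM) by 2.91 (SE 0.23, adjusted p = 2.5e-16, with 46.1% of genes called). The step from there to astrocytes was 1.98 by edgeR (SE 0.45, adjusted p = 1.6e-04, with 51.4% called). That estimate is on edgeR's scale after TMM normalization. In CPM both classes overlapped (31.1 to 61.5 against 7.64 to 43.9), and astrocytes held only 11 Ly6e UMIs. The second call was lost at a mitochondrial limit of 10% and with second-class cells kept. Astrocytes (30.6 ± 15.8), pericytes (27.4 ± 28.8) and SMCs (9.73 ± 5.13) were not called at either step (adjusted p = 0.823 and 0.163, with 28.8% and 29.5% of genes called). Free RNA held 156 to 234 CPM, with 0.353 to 0.618 Ly6e UMIs per Ly6c1 UMI. Microglia had 51.6 Ly6e UMIs per Ly6c1 UMI.

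Among the 16 classes, Ly6h was highest in ependymal cells, OPCs and neurons. The 1765 cells with markers of a second class, which were left out, held 610 Ly6h UMIs (34.0 ± 20.2 CPM), more UMIs than any class. Ependymal cells, the ciliated lining of the ventricles, had 249.7 CPM in CSD 1, 430.1 in CSD 2, 502 in HC 1 and 356 in HC 2 (385 ± 108, n = 4; 181 UMIs in 99 cells). OPCs had 401, 390.5, 335 and 371 CPM (374 ± 28.8; 90 UMIs in 71 cells), and the ranges of both classes overlapped. Neurons gave 131 ± 159 CPM from 9 UMIs in 19 cells. None of these classes had 10 cells in every library, and Ly6h did not pass the filter on low counts of the fit over classes, so that its order was not tested. Astrocytes, at 8.49 ± 6.34 CPM, and choroid plexus cells, at 0.988 ± 0.565, lay below the 47.0 to 89.0 CPM of free RNA. ECs had 11.6 ± 12.2 CPM. The spread of ECs was set by HC 2 (29.7 CPM against 3.25 to 6.72 in the other 3), where 1 cell held 36 of 54 UMIs. Without that cell HC 2 was at 9.97 CPM and the mean of ECs at 6.62 ± 2.75.

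Between classes, shares of cells with a UMI gave a similar picture at equal depth. After thinning every cell to 500 UMIs, 84.9% ± 1.81 of ECs had a Ly6c1 UMI (SD, n = 4), 74.5% ± 3.44 a Ly6a UMI and 53.4% ± 4.85 a Ly6e UMI. In microglia of the same libraries these shares were 0.764% ± 0.223, 0.854% ± 0.204 and 28.3% ± 3.26. The part that free RNA had in them was not tested. Before thinning, at a median of 862 to 1457 UMIs per EC and 1855 to 4927 per microglial cell in each library, 93.7% of ECs had a Ly6c1 UMI and 89.6% a Ly6a UMI, against 2.86% and 3.26% of microglia. In T cells 12.4% ± 7.86 had a Ly6c2 UMI (29.6% ± 7.21 unthinned), and 0 of 4376 microglia did, thinned or not, which allows up to 0.0686% of microglia with a UMI and sets no limit on those that express the gene. Ly6h UMIs were found in 12.3% ± 9.07 of thinned ependymal cells (59.8% ± 12.8 unthinned) and 14.0% ± 9.68 of thinned OPCs (55.8% ± 4.93 unthinned), against 0.286% ± 0.0458 of microglia (0.986% unthinned).

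Within ECs, most cells held both Ly6a and Ly6c1. Both genes had a UMI in 66.6% of thinned ECs in CSD 1, 63.5% in CSD 2, 62.4% in HC 1 and 68.5% in HC 2. The products of the single shares were 64.9%, 61.4%, 60.1% and 66.9%, lower in each library. At full depth 2.06% to 2.65% of ECs had a UMI of neither gene.

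**Figure D2:**
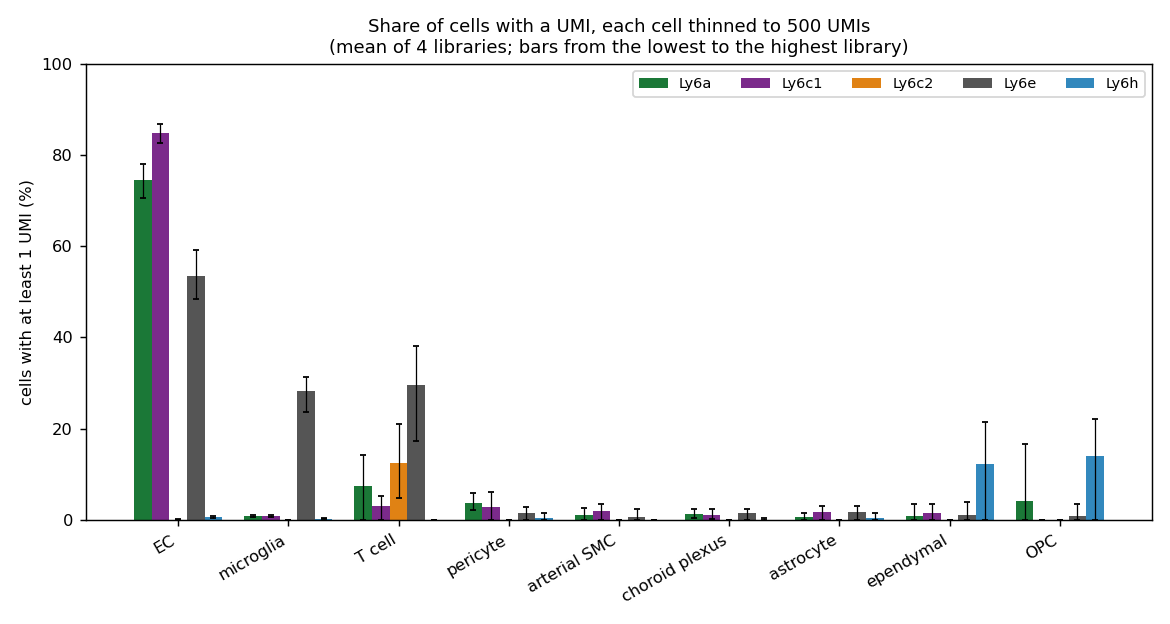
Share of cells with at least 1 UMI of each Ly6 gene after thinning to 500 UMIs per cell, in 9 classes (bars from 0, mean of 4 libraries; lines from the lowest to the highest library). ECs hold Ly6c1 (84.9%), Ly6a (74.5%) and Ly6e (53.4%), microglia and T cells mainly Ly6e (28.3% and 29.7%).

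Along the vascular tree, arterial ECs had the most Ly6a and Ly6c1 of the tested subtypes, and venous ECs the least Ly6c1. ECs were divided by markers into 4178 capillary, 163 arterial and 83 venous cells, with at least 16 cells per library in each, and 35 fenestrated ECs that were too few to test. The remaining 382 ECs had under 2 markers of every subtype or a tie between subtypes and entered only the values for all ECs, with Ly6a at 3958 ± 620.0 and Ly6c1 at 5235 ± 1068 CPM. Arterial ECs were led by Mgp, Gkn3 and Stmn2, and venous ECs by Lcn2, Ackr1, Ptgs2, Vcam1 and Cxcl1, a list that includes genes of inflammation. Of these, Gkn3, Stmn2, Lcn2, Ackr1 and Vcam1 were markers of the assignment. In CSD, Lcn2 was called as higher in ECs (log2 difference 5.50, adjusted p = 0.0044 by edgeR). Tfrc, a marker of the capillary assignment, was called as lower in capillary ECs (-0.95, adjusted p = 0.0428). Whether the assignment to subtypes differed by condition was not tested. Capillary ECs were led by the hemoglobin genes Hbb-bs and Hba-a1, RNA of red blood cells, whose part in the levels was not tested.

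Ly6a in capillary ECs was 3467 CPM in CSD 1, 3377 in CSD 2, 3321 in HC 1 and 3609 in HC 2. In arterial ECs it was 5129, 6106, 5339 and 5385 CPM, above capillary ECs in 4 of 4 libraries without overlap. The difference was 0.67 on the log2 scale (SE 0.12, adjusted p = 1.4e-04 by edgeR over 2202 genes with a block for library). In this comparison 19.6% of genes were called (9.31% as higher and 10.3% as lower in arterial ECs), and 2 of the 3 members tested were called, both higher. Venous ECs had 2470.0, 4109, 2853 and 4939.7 CPM. These values spread on both sides of those of capillary ECs, with an average difference of 0.03 (SE 0.13, adjusted p = 0.918), and lay below arterial ECs in 4 of 4 libraries (log2 difference -0.64, SE 0.14, adjusted p = 0.0011, with 6.77% of genes lower and 8.54% higher), a call lost with second-class cells kept (-0.34, adjusted p = 0.102). After thinning, 85.3% ± 10.7 of venous ECs had a Ly6a UMI, against 74.0% ± 3.35 of capillary and 88.2% ± 6.9 of arterial ECs.

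Ly6c1 differed at both steps. Capillary ECs had 4920.1, 5893, 4632 and 4955 CPM, arterial ECs 6038, 9755, 7093 and 6720.4, and venous ECs 2104, 3385, 2557 and 2709 in the same order of libraries. The highest value of each subtype was that of CSD 2. Arterial ECs exceeded capillary ECs by 0.52 (SE 0.11, adjusted p = 6.0e-04), and the call was lost when cells with markers of a second class were kept (0.12, adjusted p = 0.511) and when genes with low counts were not removed (0.35, adjusted p = 0.0616). Venous ECs were below capillary ECs (log2 difference -0.91, SE 0.12, adjusted p = 2.0e-06), where 9.13% of genes were called (3.86% as lower), and below arterial ECs (log2 difference -1.43, SE 0.12, adjusted p = 3.9e-10), where 15.3% were called. The venous level was the lowest of the 3 in every library. Fenestrated ECs, which were not tested, had 2776 CPM in CSD 1, 6403 in CSD 2 (1 cell), 2179 in HC 1 and 2877 in HC 2. After thinning, 64.4% ± 11.2 of venous ECs had a Ly6c1 UMI against 85.6% ± 1.41 of capillary and 93.7% ± 5.11 of arterial ECs.

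The balance of both genes lay further towards Ly6a in venous ECs than in capillary and arterial ECs. The ranges of capillary and arterial ECs overlapped, but arterial ECs had the higher ratio in 4 of 4 libraries (mean log2 difference 0.15, SD 0.08). Venous ECs had 1.17, 1.21, 1.12 and 1.82 Ly6a UMIs per Ly6c1 UMI in CSD 1, CSD 2, HC 1 and HC 2, capillary ECs 0.705, 0.573, 0.717 and 0.728, and arterial ECs 0.849, 0.626, 0.753 and 0.801. Each venous value exceeded each capillary and arterial value. The balance was not particular to venous ECs. Pooled over libraries, fenestrated ECs had 1.45 Ly6a UMIs per Ly6c1 UMI (353 against 243) and venous ECs 1.24. With 4 pairs a two-sided exact permutation test cannot go below p = 0.125, which all 3 comparisons of subtypes reached (adjusted p = 0.125 over the 3). The largest ratio, of HC 2, came from 16 cells with 93 Ly6a and 51 Ly6c1 UMIs.

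Ly6e differed less. Capillary ECs had 1359, 1683, 1472 and 1625 CPM, arterial ECs 1645, 2458, 1911 and 1640.5, and venous ECs 829, 1605, 1838 and 2071. Arterial ECs were higher in 4 of 4 libraries, but the difference of 0.31 (SE 0.14) was not called (adjusted p = 0.140). The venous values overlapped both other subtypes and differed by -0.00 from capillary ECs (SE 0.16, adjusted p = 0.9997) and by -0.31 from arterial ECs (SE 0.17, adjusted p = 0.242). With cells of at least 1000 UMIs, the arterial difference was called (0.33, adjusted p = 0.0189).

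**Figure D3:**
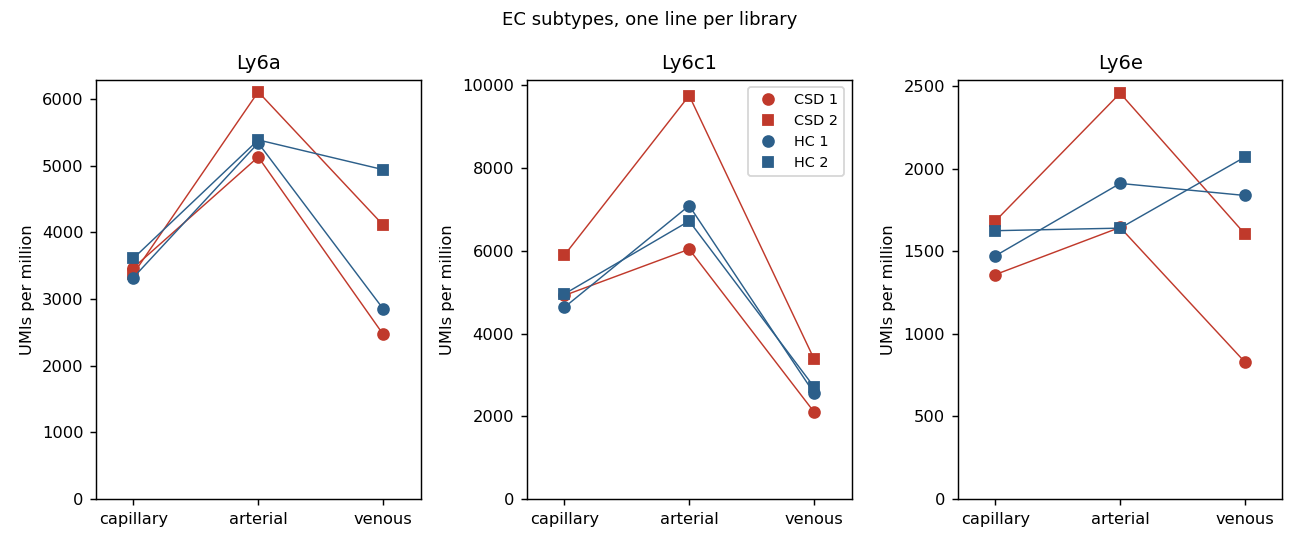
Ly6a, Ly6c1 and Ly6e (CPM, axes from 0) in capillary, arterial and venous ECs, with 1 line per library. Ly6a and Ly6c1 peak in arterial ECs in all 4 libraries, Ly6c1 is lowest in venous ECs in all 4, and Ly6e crosses between libraries.

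Interferon-induced genes were read beside the members, since both Ly6e and Ly6a are known to be induced by interferon. Of 26 listed genes, 15 were tested between EC subtypes, and 6 were higher in arterial than in capillary ECs while none was lower (9.31% of all genes were higher). Their median log2 difference was 0.60 against -0.00 over all genes. Irf7, a transcription factor of the interferon response (1.21, SE 0.29, adjusted p = 0.0028), Psmb9, an immunoproteasome subunit (1.08, SE 0.22, adjusted p = 5.5e-04), and Ifitm3, an inhibitor of virus entry (1.06, SE 0.13, adjusted p = 3.4e-07), had the largest differences. Venous ECs had 4 higher and 0 lower than capillary ECs, with 5.27% of all genes higher and a list median of 0.06. The 3 largest were Irf1 (2.17, SE 0.29, adjusted p = 3.3e-06), Ifitm2 (0.87, SE 0.19, adjusted p = 0.0023) and Psmb8 (0.85, SE 0.26, adjusted p = 0.0324). Against arterial ECs, venous ECs had more Irf1 (1.56, SE 0.35, adjusted p = 0.0019) and less Irf7 (-3.54, SE 0.80, adjusted p = 0.0020) and Isg15, a ubiquitin-like protein (-0.98, SE 0.30, adjusted p = 0.0245).

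Whether CSD changed the Ly6 genes was tested within each class with at least 10 cells in every library, by edgeR on UMIs summed per library. No member was called in any of 25 tests in 8 classes, none had an unadjusted p under 0.05 (the smallest was 0.058), and DESeq2 called none and had none under 0.05. The share of all genes called was 0.0506% in ECs, 0.233% in capillary, 0.0492% in arterial and 0% in venous ECs, 0% in microglia, 0.124% in T cells, 0% in SMCs, 0.0921% in choroid plexus cells, 0.0408% in pericytes and 0.0831% in astrocytes. Members that passed the filter on low counts numbered 4 in ECs and microglia (all but Ly6c2), 3 in each EC subtype, T cells and choroid plexus cells and 2 in SMCs, and none passed in pericytes and astrocytes. In ECs the called genes were Cdkn1a, Cxcl1, Lcn2, Tmem252 and Tnfrsf12a, all higher in CSD, named after their values were seen. On simulated counts, the test recovered 60% of genes changed by 1 on the log2 scale in ECs and 99% of those changed by 2, so that small changes could be missed. The simulation gave every gene the same dispersion, which was not taken from the data, and changed only genes of higher counts. These shares therefore do not apply to members of low counts or wider spread.

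In ECs, Ly6a differed by 0.03 on the log2 scale between CSD and HC (SE 0.15, adjusted p = 0.975), with CSD values of 3594 and 3507 CPM between those of HC (3438 and 3775). Ly6e, at 1342 and 1712 CPM in CSD and 1519 and 1637 in HC, differed by 0.00 (SE 0.16, adjusted p = 0.998). Ly6c1 was 4823 and 5956 CPM in CSD against 4694 and 5019.9 in HC, a difference of 0.20 (SE 0.17, adjusted p = 0.8004) that was 0.06 without CSD 2 and 0.34 without CSD 1. Capillary ECs gave 0.22 (SE 0.16, adjusted p = 0.742) for Ly6c1 and arterial ECs 0.19 (SE 0.23, adjusted p = 0.9997). The conditions overlapped in each of these. Venous ECs, the smallest subtype, had the widest errors, and Ly6e there was 829 and 1605 CPM in CSD against 1838 and 2071 in HC. These values did not overlap, which without a difference has a probability of 0.33 at 2 against 2 libraries. The share of all genes without overlap was not counted. The difference of -0.63 had an SE of 0.40 and was not called (adjusted p = 0.749), and it was -0.17 without CSD 1.

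In the other classes no member was called either. Ly6c2 in T cells was 438 and 272 CPM in CSD and 521 and 634 in HC, with a log2 difference of -0.63 (SE 0.38, adjusted p = 0.867) from 25, 23, 33 and 40 UMIs in CSD 1, CSD 2, HC 1 and HC 2. Ly6a in the same cells was 245 and 189 CPM in CSD and 158 and 174 in HC, with a log2 difference of 0.47 (SE 0.48, adjusted p = 0.989) from 10 to 16 UMIs per library. Ly6e in microglia (662 and 739 against 595 and 730 CPM) differed by 0.12 (SE 0.29, adjusted p = 0.9997). Ly6h in microglia (3.15 and 2.82 against 4.51 and 5.22 CPM) differed by -0.66 (SE 0.47, adjusted p = 0.9997). Ly6a in choroid plexus cells, at 95 UMIs in all, had the smallest unadjusted p (log2 difference -0.81, SE 0.42). Ly6h in ECs had the largest difference (-1.24, SE 0.82, adjusted p = 0.744), which was 1.07 without HC 2, the library of the 1 cell with 36 UMIs. In capillary ECs Ly6h did not pass the filter on low counts with all 4 libraries, and it was called as lower in CSD without that filter (-1.47, adjusted p = 0.0190). It passed the filter without CSD 1 (-1.51) and without HC 1 (-2.32), also lower in CSD. Leaving out either library left 1 library in a condition, so that only these sizes are given. The cell was a capillary EC and all 3 of these fits held it, and HC 1 had 3.33 CPM, below both CSD libraries (6.41 and 6.31).

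**Figure D4:**
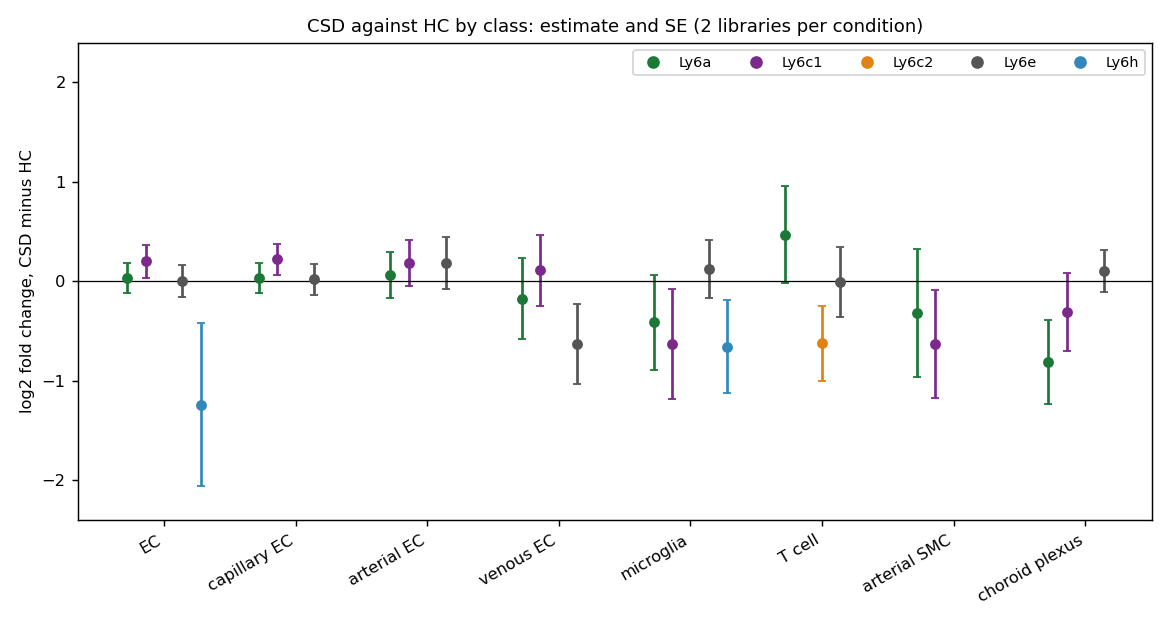
Log2 fold change of each Ly6 gene, CSD minus HC (points), with its SE (bars), in the 8 classes where at least 1 member was tested, from edgeR on 2 libraries per condition. Estimates in ECs and capillary ECs for Ly6a, Ly6c1 and Ly6e lie between 0.00 and 0.22, and no estimate in the plot was called.

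The difference of the CSD effect between classes was tested directly. None of 11 tests of a member was called between arterial and capillary ECs (0.0456% of all genes were), venous and capillary ECs (0.0459%) or ECs and microglia (0% by edgeR, with 329 genes at an unadjusted p under 0.05 and 1 called by DESeq2). No member had an unadjusted p under 0.05 with either tool. The smallest SE was that of Ly6c1 between arterial and capillary ECs (difference -0.12, SE 0.18). None of the interferon-induced genes tested was called between CSD and HC in any class. Of the 26 listed, 26 were tested in ECs (2 at an unadjusted p under 0.05) and 16 in arterial ECs (0 under 0.05). Their medians were -0.07 and -0.31, against -0.01 and 0.00 over all genes. Only 6 were tested in venous ECs (median -0.39 against 0.05 over all genes, 1 under 0.05). SMCs had 5 tested, T cells 3, pericytes 2 and astrocytes 1. Of 27 listed other genes of the Ly6/uPAR family, 5 were tested in ECs and none was called. Of these, 2 had an unadjusted p under 0.05, and the median was 0.39 against -0.01 over all genes. Over all genes tested by edgeR, 796 of 9879 were under 0.05 in ECs, 116 of 2033 in arterial ECs and 87 of 886 in venous ECs.

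Of the other 27 family genes 12 lie on chromosome 15, and 6 had no UMI in any class. Those with at least 50 CPM in a class were Ly6d, a B cell antigen, at 2103 ± 398 CPM in B cells (162 of its 165 UMIs), Plaur, the urokinase receptor, at 950.0 ± 1129 CPM in neutrophils (18 of its 1239 UMIs), Ly6g, the antigen by which neutrophils are sorted, at 343 ± 183 CPM there (9 of 9 UMIs), Cd59a, an inhibitor of the complement membrane attack complex, at 341 ± 9.71 in choroid plexus cells, Lypd1 at 229.6 ± 415 in neurons (4 of 356 UMIs) and Lynx1, which acts on nicotinic receptors, at 62.5 ± 92.9 in neurons (2 of 551 UMIs).

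The genes most like each member were sought among 13124 genes by Pearson's r of log2(CPM + 1) over the means of 16 classes, which share libraries and depth and include classes of under 50 cells. For Ly6a they were Robo4 (0.784), 8430408G22Rik, Cables2, 1700026D11Rik and Erg. For Ly6c1 they were Gpcpd1 (0.818), Fgd5, Slc26a10, Flt4 and Ccdc141, all highest in ECs. Ltb4r1 (0.980), Cd244, Atp8b4, 1700020L24Rik and AA467197 were closest to Ly6c2, Hhex (0.885), Gm32036, Elf1, Klhl6 and B2m to Ly6e, and Lmo3 (0.912), C1qtnf4, Hap1, Rprm and Kcnmb4 to Ly6h. Among the members themselves r was highest for Ly6a and Ly6c1 (0.642), and it was 0.0838 for the near-copies Ly6c1 and Ly6c2.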

How the data were processed

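Droplet-based 3′ libraries (V3.1 chemistry) of 4 pools of cells were sequenced by the authors, who deposited for each library a matrix of UMI counts per gene and barcode, with no cell calling or normalization. The submitters' processing notes name Cell Ranger 4.0 with GRCm38 (mm10), whereas the matrix header and the paper give other versions. All per-sample columns were used (0 left out). The authors' rank test over cells was not used, because cells of 1 pool are not replicates.

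Cells (at least 500 UMIs, 250 genes and at most 25% mitochondrial UMIs, as in the paper) were assigned to 16 classes where at least 3 markers of a class had a UMI and no other class had a share of detected markers over 0.5 times that of the first, and ECs to subtypes by 2 markers. The paper's added filter on complexity was an alternative. Doublets were not called. Cells with markers of a second class were left out instead. Counts were summed per library and class and tested with edgeR 4.0.16 (filterByExpr, TMM, quasi-likelihood, two-sided, Benjamini-Hochberg over all genes tested, threshold 0.05), with a library block between classes. Nothing states that same-numbered libraries share a batch, so CSD and HC were compared without a block. DESeq2 1.42.0, another scaling, 5 other choices of cells, no filter on low counts and leaving out each library were alternatives. Log2 differences are edgeR estimates after TMM scaling, which can differ from the ratio of the CPM printed beside them. Classes with under 10 cells in a library were not tested. With 2 against 2 libraries an exact permutation test of 1 value cannot go below p = 0.33. Intervals are exact and, like floors (3 counts), cover counting error only. The test was run on simulated data with 200 changed genes first. Sequences are from RefSeq and GENCODE M21, in which 30934 of 31053 gene identifiers matched. Promoter entries were used for Ly6c1 and Ly6c2 alone. Python 3.11.15 and R 4.3.3 were used.

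The members and gene lists were chosen with earlier results of these data known. Named genes were the 5 members in every class, the listed family and interferon-induced genes called in a comparison (the 3 of largest size where more were), family genes of at least 50 CPM in a class, and the 5 genes most like each member among those of at least 20 CPM in a class.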

Additional observations from a re-analysis of the deposited data

How the results depend on the processing

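The values below are from the fits in which 1 choice at a time was changed. For CSD against HC, 0 of 25 member tests were called. With all 4 libraries kept, the count was also 0 under each of the other settings except that without a filter on low counts (1 of 43). The called gene was Ly6h in capillary ECs, which did not pass the filter there with all 4 libraries. It passed without CSD 1 and without HC 1, with log2 differences of -1.51 and -2.32. Both fits left 1 library in a condition, so that only sizes are given for it. With the replicate number as a block, which nothing ties to a shared batch, 0 members were called and the deviations of same-numbered libraries had correlations of 0.0108 to 0.419 over genes in the 10 classes. Between EC subtypes 5 of 9 member tests were called, against 3 of 9 with second-class cells kept, 4 of 15 without the filter, 3 of 3 at 1000 UMIs and 2 of 3 at a mitochondrial limit of 10%. In the last 2 settings venous ECs had under 10 cells in a library and were not run. Leaving out any library kept the count at 5. Of all genes, 9.13% to 19.6% were called in the comparisons of subtypes with all 4 libraries and no choice changed. Of 20 steps between neighboring classes 9 were called, in contrasts in which 28.8% to 77% of all genes were called. With second-class cells kept, 14 of 26 were called. In that setting Ly6a of T cells against pericytes reversed to -1.44, with pericytes at 748 CPM instead of 56.1, and Ly6a in ECs moved from 3578 to 3369 CPM. A limit of 10% moved it to 3759 CPM. Differences of the CSD effect had 0 calls throughout. Among estimates called neither way, which were given no direction, 38 of 313 for CSD against HC changed sign.

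Counts over all genes moved more. In ECs the 5 calls ranged from 2 to 292 (292 without CSD 1, 67 by DESeq2, 61 with the block), in capillary ECs the 22 from 4 to 505 (505 without CSD 1), and in microglia the 0 (131 genes at an unadjusted p under 0.05) reached 53 with the block and 1 by DESeq2. In venous ECs the 0 (87 genes under 0.05) reached 31, and 3 by DESeq2, and in SMCs the 0 (137 under 0.05) reached 23, and 0 by DESeq2. Between subtypes, arterial against capillary calls ran from 283 to 1299 around 431. Depth limits the small classes, with 90 Ly6h UMIs in OPCs, 121 Ly6c2 UMIs in T cells and as few as 9 Ly6h UMIs in neurons and 15 Ly6c2 UMIs in neutrophils.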
